A study of Mus musculus with 8 samples.

Results

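Wnt5a, its Ror receptors and the secreted inhibitors of Wnt signalling were followed across mouse embryonic fibroblasts (MEFs) that lacked FIH, VHL or both. The 10 genes were Wnt5a, Ror1, Ror2, Fzd1, Fzd2, Sfrp1, Sfrp2, Dkk2, Dkk3 and Wif1, of 18193 genes with a probe set on the array. They were chosen by their signals on these 8 arrays, so their values are given as a description with no test. All 24 probe sets that the platform annotation gives to 1 of these genes alone were read, of 34945 with a single gene symbol.

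Total RNA was hybridized to Affymetrix expression arrays covering the mouse genome, and each of the 4 groups had 2 arrays. The 3 null groups, which lacked FIH, VHL or both (FIH null, VHL null, VHL/FIH null), were made by infecting floxed MEF lines (FIHdf, VHLdf and VHLdf/FIHdf) with an adenovirus carrying Cre recombinase, and the last group was wild type. All lines had been immortalized with large T, a viral oncoprotein, and grew at 21% oxygen in high-glucose DMEM with serum. Each null group derived from a floxed line of its own, so genotype and line of origin cannot be told apart, and the line behind the wild type arrays is not given in the sources used here. The labels call the arrays biological replicates without naming separate embryos or cultures, so the spread between them may be technical. FIH is an oxygen-dependent hydroxylase that restrains the activity of hypoxia-inducible factors, and VHL is the substrate-binding part of the ligase that sends their alpha subunits for degradation.

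Wnt5a is a secreted ligand that acts in mesenchyme mainly through Ror and frizzled receptors, along routes that do not need beta-catenin and that set cell polarity and movement. The sFRP proteins and Wif1 bind Wnt ligands outside the cell. Dickkopf proteins such as Dkk2 bind the Lrp5 and Lrp6 coreceptors and so act on the beta-catenin route.

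A signal here is a MAS5 intensity on a linear scale. The cutoff of 291.1 is the median of all signals, and a probe set was tested where at least 2 arrays exceeded it, which 15 of the 24 did, for 9 of the 10 genes. Signals of different probe sets are not compared with each other, though the marker sums below add them. Log2 differences are on log2(signal + 16), with the standard error (SE) from a limma fit of all 8 arrays. Arrays of the same group correlated at 0.987 or higher over the tested probe sets, against 0.946 to 0.978 between groups. Vhl averaged 3480 ± 76.5 in FIH null cells, 731 ± 33.2 in VHL null cells and 979 ± 116 in VHL/FIH null cells, against 3294 ± 36 in wild type (SD, n = 2 each). Hif1an, which encodes FIH, averaged 1691 ± 21.7, 2033 ± 169.9 and 1286 ± 166 in the same null groups, against 2867 ± 206 in wild type (SD, n = 2 each), so by the probe set read it was lower in VHL null cells too. With its probe sets averaged, that difference between VHL null and wild type did not pass (limma, adjusted p = 0.564). Whether the Vhl and Hif1an probe sets read lie in the deleted exons is not given in the sources used here. Of 10 fibroblast markers, 8 were above the cutoff on all 8 arrays. In VHL/FIH null against wild type 2 of the 10 were called higher and 2 lower, beside 17.8% and 23.6% of all tested genes. The median log2 difference of these markers was -0.08. They went different ways: Pdgfra averaged 175 in VHL/FIH null cells, below the cutoff, against 1010.3 in wild type. Col3a1 averaged 26067 against 11741 and Prrx1 22731 against 16520.0. In such bulk samples fewer cells of a type and less RNA per cell cannot be told apart.

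Promoters are shown for 4 genes that carry the main patterns: Ror1 and Dkk2, whose signals were highest in VHL/FIH null cells, and Fzd1 and Sfrp2, whose signals were lower wherever FIH was lost. The windows run from 250 bases before to 50 after the start that RefSeq gives (build GRCm38.p6), and 6 of the 10 genes had one. Capitals mark every match, on either strand, to ACGTG or GCGTG, the core letters bound by hypoxia-inducible factors, or to CTTTGA, a core of TCF and LEF sites; none overlaps another in these windows. The windows are chr4:100095541-100095840 (plus strand) for Ror1, chr3:132085042-132085341 (plus strand) for Dkk2, chr5:4758167-4758466 (minus strand) for Fzd1 and chr3:83766071-83766370 (plus strand) for Sfrp2.
Ror1: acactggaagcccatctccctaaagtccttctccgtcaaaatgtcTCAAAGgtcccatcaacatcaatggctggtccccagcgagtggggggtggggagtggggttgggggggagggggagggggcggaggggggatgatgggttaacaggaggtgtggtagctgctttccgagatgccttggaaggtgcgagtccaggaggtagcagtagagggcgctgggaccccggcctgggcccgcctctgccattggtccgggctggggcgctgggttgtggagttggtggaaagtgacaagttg
Dkk2: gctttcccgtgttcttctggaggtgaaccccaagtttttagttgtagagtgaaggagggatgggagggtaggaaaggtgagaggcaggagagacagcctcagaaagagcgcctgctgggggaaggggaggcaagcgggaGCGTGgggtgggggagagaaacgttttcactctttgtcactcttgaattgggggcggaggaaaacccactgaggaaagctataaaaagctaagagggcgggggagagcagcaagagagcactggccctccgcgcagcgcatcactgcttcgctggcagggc
Fzd1: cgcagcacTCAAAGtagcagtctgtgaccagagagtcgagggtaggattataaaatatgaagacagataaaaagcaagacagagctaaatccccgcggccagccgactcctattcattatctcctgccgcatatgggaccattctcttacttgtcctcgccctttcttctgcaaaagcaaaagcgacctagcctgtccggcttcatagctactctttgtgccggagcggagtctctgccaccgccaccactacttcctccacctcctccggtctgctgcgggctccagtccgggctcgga
Sfrp2: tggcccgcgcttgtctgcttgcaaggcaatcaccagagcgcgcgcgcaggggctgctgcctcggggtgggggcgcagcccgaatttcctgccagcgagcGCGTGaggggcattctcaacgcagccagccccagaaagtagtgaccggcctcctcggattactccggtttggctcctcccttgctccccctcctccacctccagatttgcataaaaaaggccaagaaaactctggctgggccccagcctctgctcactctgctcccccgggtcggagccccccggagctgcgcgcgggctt
Ror1 and Fzd1 each held CTTTGA on the opposite strand, 205 and 242 bases before the start. Dkk2 and Sfrp2 each held GCGTG, 111 and 151 bases before it. The window of Sfrp2 lies inside the annotated span of the gene. Of the 2 windows not printed that were searched, Ror2 held no match, and Wif1 held ACGTG on both strands at overlapping positions 210 and 209 bases before the start. Among 32851 promoters of the same length, 19.6% held ACGTG, 32.4% GCGTG and 16% CTTTGA. A match describes the letters only.

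Wnt5a, the ligand, was highest in VHL/FIH null and VHL null cells and lowest in FIH null cells. The probe set read for the gene (1436791_at) gave 999 and 1237 on the FIH null arrays, 2637 and 3269 on the VHL null arrays and 4301 and 3306 on the VHL/FIH null arrays, against 1753 and 1952 in wild type. No null group overlapped wild type. In order of mean level VHL/FIH null came before VHL null, then wild type, then FIH null; the difference between VHL/FIH null and VHL null means was smaller than the sum of their SDs, and every other neighbouring pair differed by more. The log2 difference from wild type was -0.73 in FIH null cells, 0.66 in VHL null cells and 1.02 in VHL/FIH null cells (SE 0.15 each). VHL/FIH null was higher than FIH null by 1.75, or 3.40-fold. With scaling to the spiked hybridization controls the differences from wild type were -0.98 in FIH null arrays, 0.29 in VHL null arrays and 0.50 in VHL/FIH null arrays, in the same directions.

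Another 2 Wnt5a probe sets above the cutoff had the same order of groups. Probe set 1448818_at gave 1122 and 1347 in FIH null cells, 2347 and 2674 in VHL null cells and 2883 and 2971 in VHL/FIH null cells, against 1602 and 1747 in wild type. Probe set 1437673_at gave 269 and 242 in FIH null cells, 702 and 688 in VHL null cells and 1102 and 909.5 in VHL/FIH null cells, against 357 and 493 in wild type. By that probe set FIH null cells were below the cutoff on both arrays, and VHL/FIH null cells were at least 3.46-fold higher than these. The remaining probe set, 1456976_at, was below the cutoff on all 8 arrays, between 93.1 and 271.

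**Figure D1:**
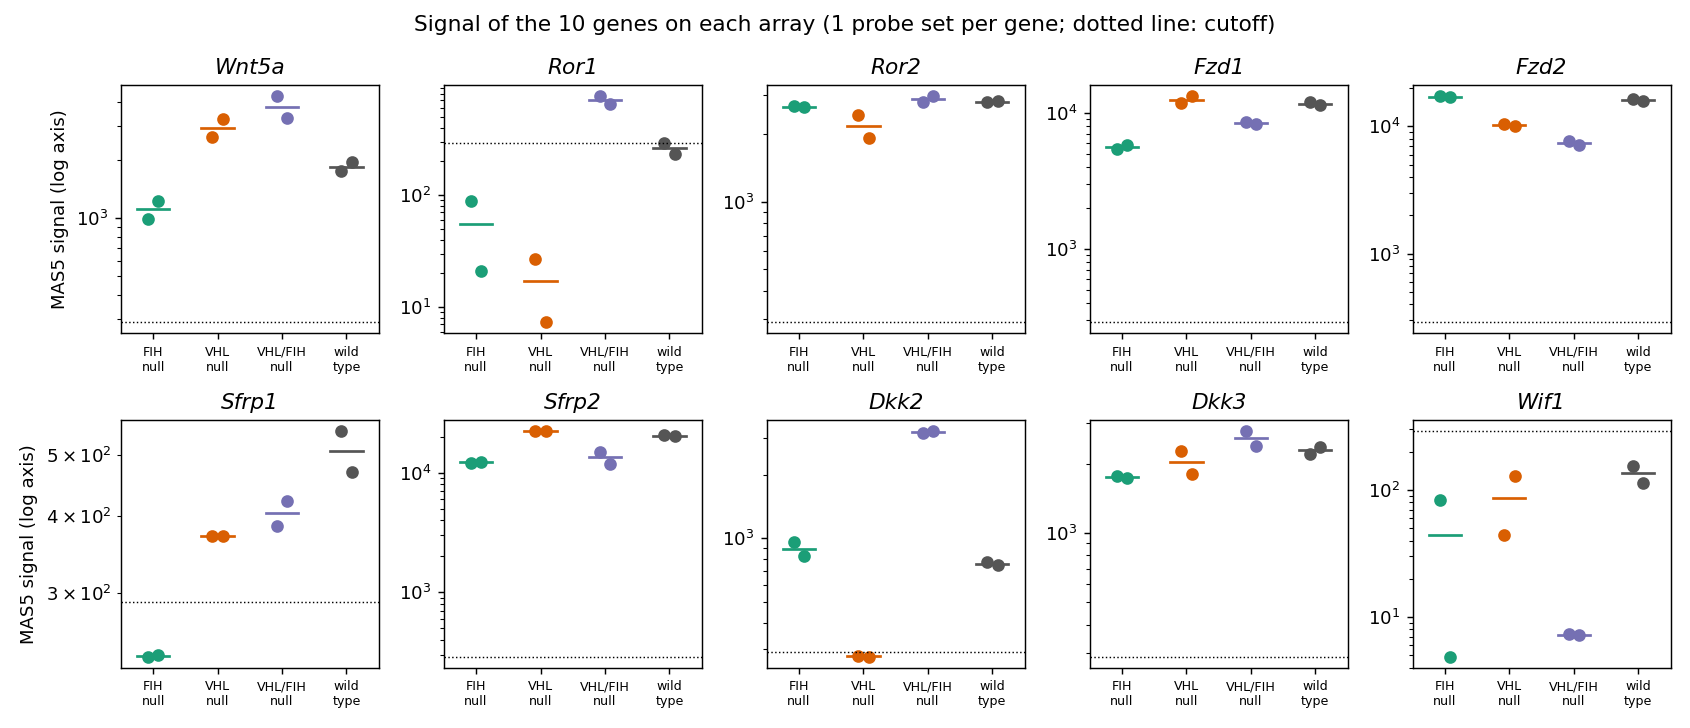
MAS5 signal (log axis) of the 10 genes on each array, by 1 probe set per gene; points are arrays, short lines are group means, and the dotted line is the cutoff of 291.1. Ror1 and Dkk2 stand highest in VHL/FIH null cells, Wnt5a is lowest in FIH null cells, and Wif1 lies below the cutoff on all 8 arrays.

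Ror1, a receptor tyrosine kinase-like protein that binds Wnt5a, was above the cutoff on both arrays only in VHL/FIH null cells. Probe set 1429313_at gave 88.6 and 21.2 in FIH null, 26.9 and 7.4 in VHL null and 761 and 651 in VHL/FIH null cells, against 293 and 231 in wild type. The wild type arrays straddled the cutoff, and neither group that lacked a single gene came near it. VHL/FIH null cells were 2.69-fold higher than wild type and at least 2.42-fold higher than either FIH null or VHL null cells, whose signals are only bounded by the cutoff. Fitted log2 differences from wild type were -2.15 in FIH null cells, -3.13 in VHL null cells and 1.38 in VHL/FIH null cells (SE 0.65 each), and the negative values rest on signals below the cutoff. FIH null and VHL null were the neighbouring groups whose means differed by less than the sum of their SDs.

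The other probe sets of Ror1 were below the cutoff on all 8 arrays. Probe set 1429312_s_at gave 15.4 and 75 in FIH null, 21.0 and 20.1 in VHL null and 201 and 192 in VHL/FIH null cells, against 143 and 175 in wild type. Its 4 group means had the order of the first probe set, and no VHL/FIH null array overlapped another group. Probe set 1451014_at gave 279.9 and 122 in FIH null cells, 262 and 132 in VHL null cells and 195 and 243 in VHL/FIH null cells, against 207 and 195 in wild type. Its groups overlapped in every comparison, so the pattern of the first probe set was not seen there, and no fold is given for either. The suffix of 1429312_s_at marks a probe set that may bind related transcripts.

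**Figure D2:**
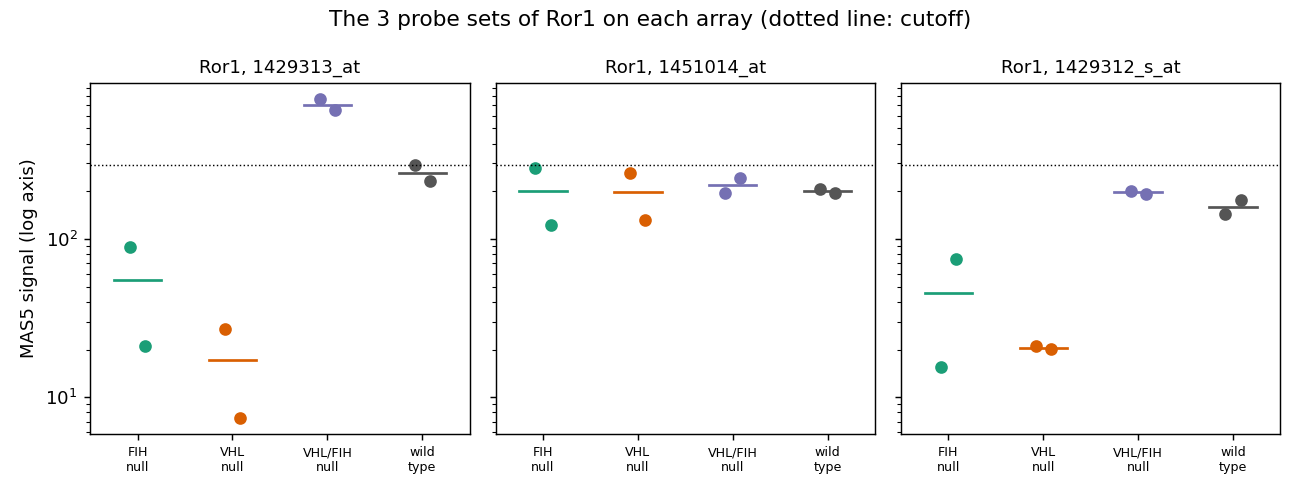
MAS5 signal (shared log axis) of the 3 Ror1 probe sets on each array; points are arrays, short lines are group means, and the dotted line is the cutoff of 291.1. Only 1429313_at rises above the cutoff on both VHL/FIH null arrays (761 and 651), 1429312_s_at shows the same order below it, and 1451014_at shows overlapping groups.

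Ror2, the other Ror receptor and a main Wnt5a receptor in limb and skeletal mesenchyme, had similar signals in 3 groups and a lower mean in VHL null cells. Probe set 1423428_at gave 2662 and 2637 in FIH null cells, 2442 and 1913 in VHL null cells and 2768 and 2949 in VHL/FIH null cells, against 2769 and 2800 in wild type. The VHL null arrays were both lower than all others, and they differed from each other by more than the remaining 6 arrays did. Log2 differences from wild type were -0.07 in FIH null cells, -0.36 in VHL null cells and 0.04 in VHL/FIH null cells (SE 0.11 each), and the last turned to -0.49 when arrays were scaled to the spiked hybridization controls, and it also turned without VHL/FIH null replicate 2. Probe set 1457128_at was below the cutoff on all 8 arrays, from 43.4 to 254.

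Fzd1 and Fzd2, frizzled receptors that bind Wnt ligands through a cysteine-rich domain, had different patterns. Fzd1 (1437284_at) gave 5388 and 5783 in FIH null, 11754 and 13250.4 in VHL null and 8525 and 8302 in VHL/FIH null cells, against 11979 and 11397 in wild type. The FIH null arrays were lowest and the VHL/FIH null arrays next, without overlap, while VHL null and wild type overlapped. Fzd1 was 2.09-fold lower in FIH null than in wild type (log2 difference -1.06 ± 0.072, SE), and VHL/FIH null was 1.49-fold lower than VHL null (log2 difference -0.57 ± 0.072, SE). The second probe set, 1422985_at, gave 1168 and 1175 in FIH null cells, 2348 and 2104 in VHL null cells and 1729.9 and 1528 in VHL/FIH null cells, against 2365 and 2069 in wild type, the same arrangement of groups.

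Fzd2 (1418532_at) gave 17248 and 16881 in FIH null cells, 10346 and 10133 in VHL null cells and 7694 and 7144 in VHL/FIH null cells, against 16327 and 15767 in wild type. Both groups without VHL were lower than wild type, and VHL/FIH null was lower than VHL null, with no overlap. The log2 difference from wild type was -0.65 in VHL null and -1.11 in VHL/FIH null cells (SE 0.059 each), or 1.57-fold and 2.16-fold lower. In order of level FIH null came before wild type, VHL null and VHL/FIH null, and every neighbouring pair differed by more than the sum of its SDs. FIH null cells were 0.09 above wild type, which turned to -0.17 with scaling to the hybridization controls. Probe sets 1418533_s_at and 1418534_at gave the same order of the 4 groups, with VHL/FIH null 1.91-fold and 2.68-fold lower than wild type.

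A marker sum adds linear signals of different probe sets, tested or not, so it leans on the highest of them. Epithelial markers were summed over 6 genes, and the sum was lower in both groups without VHL, as Fzd2 was. It was 2832 to 2856 in FIH null cells, 1549 to 1664 in VHL null cells and 1346 to 1605 in VHL/FIH null cells, against 2622 to 3086 in wild type, while 1 of the 6 was above the cutoff on all 8 arrays and Cdh1 and Krt14 were below it on all 8. Krt18 had this arrangement, with means of 1314, 657 and 340 in the same null groups, against 1375 in wild type. Epcam did not, with means of 795, 284 and 488.8, against 489.6 in wild type. Of 3 tested members 0 were called higher and 1 lower in VHL/FIH null against wild type (0.0% and 33.3%), beside 17.8% and 23.6% of all tested genes. The part of these markers in the Fzd2 values was not tested.

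Sfrp1 and Sfrp2, secreted proteins with a frizzled-like domain that bind Wnt ligands, both had lower signals in FIH null cells. Sfrp1 (1428136_at) gave 238 and 239 in FIH null, 371 and 370.4 in VHL null and 385 and 422 in VHL/FIH null cells, against 547 and 469.8 in wild type. Wild type was highest, and FIH null was below the cutoff on both arrays and at least 1.75-fold lower than wild type. The log2 difference from wild type was -1.04 in FIH null cells, -0.44 in VHL null cells and -0.32 in VHL/FIH null cells (SE 0.25 each). Below wild type came VHL/FIH null, VHL null and then FIH null, each apart from its neighbour by more than the sum of their SDs. The log2 difference between VHL/FIH null and VHL null was 0.12, though, smaller than its SE of 0.25. It turned to -0.03 with scaling to the hybridization controls. The other 4 Sfrp1 probe sets exceeded the cutoff on a single array among them, the VHL/FIH null array with 311 for 1448395_at.

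Sfrp2, by its single probe set 1448201_at, gave 12106 and 12395 in FIH null cells, 22174 and 22405 in VHL null cells and 15065 and 11852 in VHL/FIH null cells, against 20547 and 20213 in wild type. Every array without FIH was lower than every array with it. The log2 difference was -0.73 for FIH null against wild type and -0.74 for VHL/FIH null against VHL null (SE 0.090 each), or 1.66-fold lower in each case, and these comparisons share no array. VHL null was 0.13 above wild type, which turned to -0.25 with scaling to the hybridization controls. VHL/FIH null and FIH null overlapped, and the sign of their difference turned without VHL/FIH null replicate 1.

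The summed signal of cartilage and bone markers was lower wherever FIH was lost, as Sfrp2 and Fzd1 were, but its members did not share that arrangement. The sum, over 7 genes of 9 with a probe set, was 2072 to 2232 in FIH null cells, 4538 to 5046 in VHL null cells and 1822 to 2004 in VHL/FIH null cells, against 4694 to 4808 in wild type. Sox9 averaged 1011, 1823 and 723 in these null groups, against 1030.3 in wild type. Acan averaged 219, 1728 and 299, against 550.3 in wild type, and Col2a1 averaged 32.1, 487 and 74.5, against 2161 in wild type. The sums of VHL null and wild type were thus close although Sox9 and Acan were higher and Col2a1 lower in VHL null. Of these markers 1 was above the cutoff on all 8 arrays and Ibsp was below it on all 8. Their part in the values of Sfrp2 and Fzd1 was not tested.

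Dkk2, a Dickkopf protein that binds Lrp coreceptors and can act for or against beta-catenin signalling, was highest in VHL/FIH null cells and lowest in VHL null cells. Probe set 1420512_at gave 959 and 821 in FIH null cells, 278 and 276 in VHL null cells and 3166 and 3222 in VHL/FIH null cells, against 772 and 746 in wild type. The VHL null arrays were below the cutoff, the VHL/FIH null arrays were above all others, and no groups overlapped, with FIH null and wild type in between. VHL null was at least 2.61-fold lower than wild type, VHL/FIH null was 4.21-fold higher than wild type, and VHL/FIH null was at least 10.97-fold higher than VHL null. Log2 differences from wild type were 0.22 in FIH null cells, -1.40 in VHL null cells and 2.05 in VHL/FIH null cells (SE 0.15 each), and the first turned to -0.04 with scaling to the hybridization controls.

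Dkk3, a divergent Dickkopf family member, differed between its probe sets. Probe set 1417312_at gave 1775 and 1731 in FIH null cells, 2263 and 1794 in VHL null cells and 2769 and 2383 in VHL/FIH null cells, against 2197 and 2370.0 in wild type. None of its neighbouring groups in order of level differed by more than the sum of their SDs. Probe set 1448669_at gave 1012 and 1039.6 in FIH null cells, 1003 and 1012 in VHL null cells and 1480 and 1408 in VHL/FIH null cells, against 1640.0 and 1559 in wild type. By the second, FIH null was 1.56-fold and VHL null 1.59-fold lower than wild type, with no overlap. VHL/FIH null stood above wild type by the first (0.17) and below it by the second (-0.15) on the log2 scale, and the first turned to -0.35 with scaling to the hybridization controls. By both, FIH null was lower than wild type and VHL/FIH null was higher than VHL null.

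Wif1, a secreted factor that binds Wnt ligands, was not measured above the cutoff. Probe set 1425425_a_at gave 83.6 and 4.9 in FIH null, 44.1 and 128 in VHL null and 7.3 and 7.2 in VHL/FIH null cells, against 156 and 114 in wild type. No fold is given, since all 8 values lay below 291.1.

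**Figure D3:**
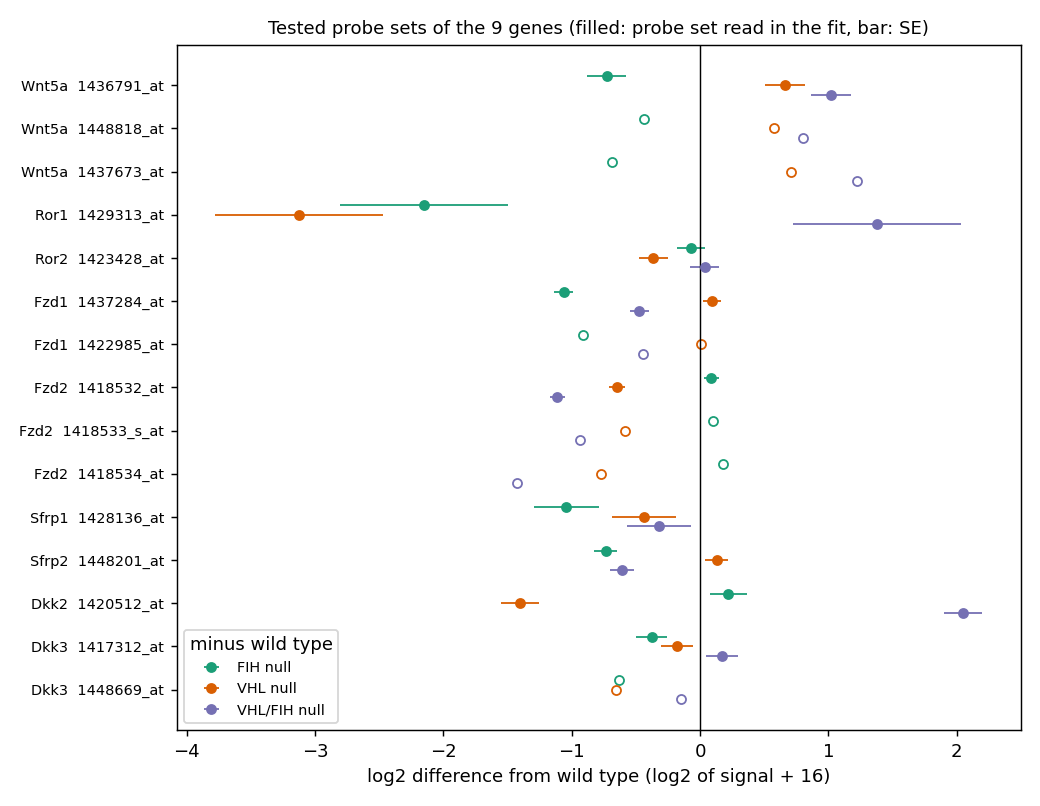
Log2 difference from wild type for the 15 tested probe sets of the 9 genes, with filled points for the probe set read in the fit (bars are SE) and open points for the others. The probe sets of Wnt5a, Fzd1 and Fzd2 lie on the same side of 0 as each other in each group, and those of Dkk3 fall on opposite sides for VHL/FIH null (0.17 and -0.15).

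FIH loss was set side by side in cells that kept VHL and in cells that lacked it, that is FIH null against wild type and VHL/FIH null against VHL null. Ror1 gave fitted log2 differences of -2.15 with VHL present and 4.51 with VHL lost (SE 0.65 each), which rest on FIH null and VHL null signals below the cutoff, so that the second is bounded only as at least 2.42-fold and the first has no bound. Dkk2 gave 0.22 and 3.45 (SE 0.15 each). Wnt5a gave -0.73 and 0.36 (SE 0.15 each), and Sfrp1 gave -1.04 and 0.12 (SE 0.25 each), the second turning to -0.03 with scaling to the hybridization controls.

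For those 4 genes the value with VHL lost was the higher, as it also was for Fzd1, Ror2 and Dkk3. Fzd1 gave -1.06 and -0.57 (SE 0.072 each) and Sfrp2 gave -0.73 and -0.74 (SE 0.090 each), lower in both settings. Fzd2 gave 0.09 and -0.46 (SE 0.059 each), the second lower and the first turning to -0.17 with scaling to the hybridization controls. Ror2 and Dkk3 gave -0.07 and 0.40 (SE 0.11 each) and -0.38 and 0.35 (SE 0.12 each). These contrasts belong to the choice of the genes and were not tested. The comparisons with wild type share its arrays, as those of VHL/FIH null cells share theirs, so they are not independent of each other.

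**Figure D4:**
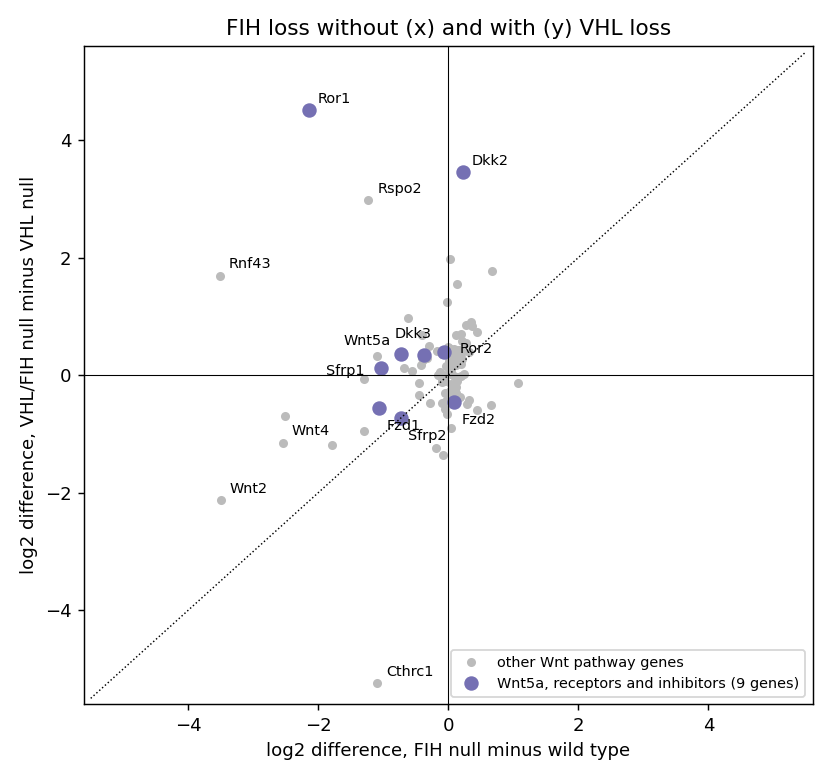
Log2 difference of FIH loss with VHL present (x, FIH null minus wild type) against that with VHL lost (y, VHL/FIH null minus VHL null) for the 9 genes (large points) and the 97 other tested Wnt pathway genes (small points); the dotted line marks equal values. Ror1 lies at -2.15 and 4.51, fitted values that rest on signals below the cutoff, Dkk2 at 0.22 and 3.45, and Sfrp2 near the line at -0.73 and -0.74.

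The summed signals of 2 marker lists were highest in VHL/FIH null cells, as Ror1 and Dkk2 were. Smooth muscle markers summed to 57370 to 60420 in FIH null cells, 55570 to 56940 in VHL null cells and 74790 to 83100 in VHL/FIH null cells, against 69600 to 73310 in wild type, with 4 of 6 above the cutoff on all 8 arrays and Myh11 below it on all 8. Adipocyte markers summed to 1436 to 1443 in FIH null cells, 1676 to 2005 in VHL null cells and 3081 to 3445 in VHL/FIH null cells, against 1746 to 2006 in wild type, with 1 of the 4 that had a probe set above the cutoff on all 8 arrays and Adipoq and Lpl below it on all 8. Members of these lists went different ways. Cnn1 averaged 9951 in VHL/FIH null cells, against 3640.3 in wild type, and Tagln averaged 38196 against 35616. Acta2 averaged 29976 against 30133 and Actg2 442 against 1911. In VHL null cells Acta2 averaged 14390. Fabp4 averaged 1911 in VHL/FIH null cells, against 367 in wild type, while Pparg averaged 1173 against 1393. Their part in the values of Ror1 and Dkk2 was not tested. Sums were also taken for other marker lists, and a list was set beside a gene only where the arrangement was alike. Neural markers, not set beside a gene above, summed to 5913 to 6254 in VHL null cells, against 8744 to 8906 in wild type. That sum was lowest in VHL null cells, as Ror2 was, but Tubb3 averaged 1032 there and 679 in FIH null cells.

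Other genes of the Wnt pathway, a textbook list of 136 that leaves out the 10, were tested in the same fit. The list was chosen with earlier results of these data known, which limits what its shares show beside those of all genes. Of these, 132 had a probe set and 97 were tested, and a gene was called at a limma adjusted p under 0.05. In FIH null against wild type 2 were higher and 12 lower (2.06% and 12.4%), beside 1.96% and 4.59% of all 11564 tested genes. In VHL null against wild type 14 were higher and 31 lower (14.4% and 32.0%), beside 15.5% and 28.4%. In VHL/FIH null against wild type 19 were higher and 34 lower (19.6% and 35.1%), beside 17.8% and 23.6% of all tested genes.

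Against VHL null, 27 of the 97 were higher in VHL/FIH null and 19 lower (27.8% and 19.6%), beside 22.3% and 15.4% of all tested genes. Against FIH null, 22 were higher in VHL/FIH null and 27 lower (22.7% and 27.8%), beside 20.6% and 25.0%. The interaction, the effect of FIH loss with VHL lost minus that with VHL present, was positive for 15 and negative for 14 (15.5% and 14.4%), beside 13.4% and 8.47%. Median log2 differences of the 97 ran from -0.22 in VHL null against wild type to 0.17 for the interaction, beside -0.10 and 0.064 over all tested genes.

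The split of calls depended on the scaling. Hybridization controls were higher than in wild type by 0.26 on FIH null arrays, by 0.38 on VHL null arrays and by 0.52 on VHL/FIH null arrays, on the log2 scale. Scaling to them gave 0 higher and 38 lower in FIH null cells, 3 and 69 in VHL null cells and 4 and 68 in VHL/FIH null against wild type. It gave 13 higher and 30 lower against VHL null, 13 and 48 against FIH null, and 22 positive and 11 negative interactions. Centring array medians gave 22 higher and 22 lower in VHL null against wild type and 20 and 22 in VHL/FIH null against VHL null. With scaling to the controls the median over all tested genes moved to -0.26 in FIH null cells, -0.48 in VHL null cells and -0.57 in VHL/FIH null against wild type.

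**Figure D5:**
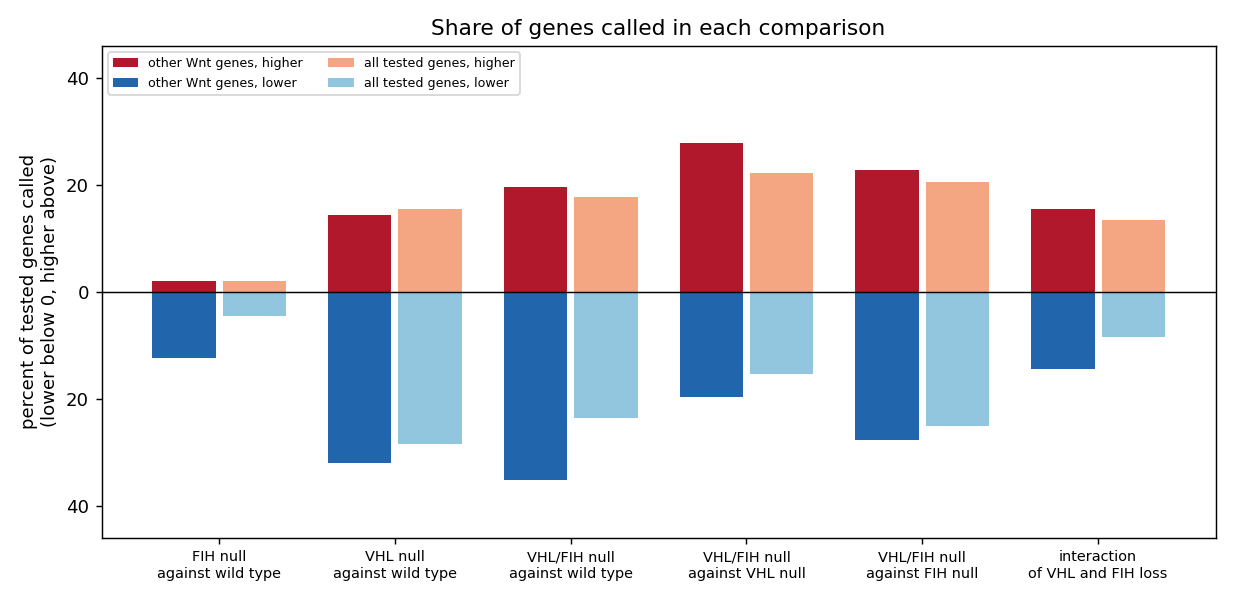
Percent of tested genes called higher (above 0) and lower (below 0) at an adjusted p under 0.05, for the 97 other Wnt pathway genes (dark bars) and all 11564 tested genes (pale bars) in each comparison. In FIH null against wild type 12.4% of the Wnt genes and 4.59% of all genes were lower. The Wnt list was chosen with earlier results of these data known.

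Among the other ligands, Wnt4 was lower in every null group. It gave 355 and 249.8 in FIH null, 610.0 and 669 in VHL null and 277 and 282 in VHL/FIH null cells, against 1792 and 1839 in wild type, with no overlap between any null group and wild type. The log2 difference from wild type was -2.54 in FIH null (limma, adjusted p = 2.55e-05), -1.48 in VHL null (0.000271) and -2.63 in VHL/FIH null cells (3.39e-06). Both VHL/FIH null arrays were below the cutoff, as was the FIH null array with 249.8. VHL/FIH null cells are thus bounded as at least 6.24-fold lower than wild type. Wnt10a was lower in VHL/FIH null than in wild type (log2 difference -1.08; limma, adjusted p = 3.98e-06). Of 10 tested ligands, 0 were higher and 5 lower in VHL/FIH null against wild type, beside 17.8% and 23.6% of all tested genes. Wnt5b, the closest relative of Wnt5a, was not tested, with a highest signal of 274.5.

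Among other receptors and coreceptors, 3 of 11 tested were higher and 3 lower in VHL/FIH null against wild type (27.3% each), beside 17.8% and 23.6% of all tested genes. Ptk7, a pseudokinase that acts with Ror2 in planar polarity, was lower in VHL null (log2 difference -0.70; limma, adjusted p = 0.00501) and in VHL/FIH null cells (-0.68; 0.00623), and was at 0.05 in FIH null cells (0.902). Vangl2, a polarity protein that works downstream of Wnt5a and Ror2, was lower in VHL null (-0.68; limma, adjusted p = 0.00419) and VHL/FIH null cells (-0.72; 0.0031). Fzd4 was higher in VHL/FIH null than in wild type (1.14; limma, adjusted p = 0.00646), a call that 1 of 20 alternatives ended. Ryk, another Wnt5a receptor, was 0.28 higher there (limma, adjusted p = 0.00782), which turned to -0.25 with scaling to the hybridization controls.

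Lrp5 and Lrp6, the coreceptors that Dickkopf proteins bind, passed in 1 comparison each. Lrp6 was lower in VHL null than in wild type (log2 difference -0.29; limma, adjusted p = 0.0337), a call that 8 of 21 alternatives ended. Lrp5 was higher in VHL/FIH null than in VHL null (0.86; limma, adjusted p = 0.04), a call that 10 of 20 ended. Neither passed in FIH null or VHL/FIH null against wild type. Lrp5 was at 0.27 and 0.38 (limma, adjusted p = 0.647 and 0.33), and Lrp6 at 0.10 and -0.02 (0.599 and 0.893). Among other inhibitors at the cell surface 2 of 8 tested were higher and 2 lower in VHL/FIH null against wild type (25.0% each), beside 17.8% and 23.6% of all tested genes. Trabd2b, a protease that cleaves Wnt proteins, was 3.71-fold higher (log2 difference 1.85; limma, adjusted p = 0.00075). Dkk1 and Frzb were not tested, with highest signals of 156 and 167.

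Rspo2, a secreted agonist that amplifies Wnt signalling, had the order of groups that Ror1 had, except that FIH null was the lowest. It gave 754 and 659.7 in FIH null cells, 837 and 857 in VHL null cells and 6644 and 6938 in VHL/FIH null cells, against 1671 and 1686 in wild type. The log2 difference from wild type was -1.23 in FIH null (limma, adjusted p = 3.8e-05), -0.97 in VHL null (4.91e-05) and 2.01 in VHL/FIH null cells (1.19e-07), and the interaction was 4.21 (2.71e-08). Cthrc1, a secreted protein that stabilizes the complex of Wnt5a with its receptors, gave 2829.8 and 2835 in FIH null cells, 11864 and 12092 in VHL null cells and 418 and 215 in VHL/FIH null cells, against 5954 and 6215 in wild type. It was lower in VHL/FIH null than in wild type (log2 difference -4.27; limma, adjusted p = 5.85e-08), with 1 of its 2 arrays below the cutoff, and higher in VHL null (0.98; 0.00327).

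Axin2, a common target of beta-catenin, was lower in FIH null cells. It gave 280.0 and 124 in FIH null cells, 486 and 619 in VHL null cells and 502 and 217 in VHL/FIH null cells, against 1164 and 1128 in wild type, the highest arrays. The log2 difference from wild type was -2.52 in FIH null (at least 3.94-fold lower; limma, adjusted p = 0.00341), -1.04 in VHL null (0.0575) and -1.74 in VHL/FIH null cells (0.00536), and a fit with no variance trend ended the call in FIH null. Lef1 did not pass in any comparison, with adjusted p from limma of 0.615 in FIH null cells, 0.388 in VHL null cells and 0.457 in VHL/FIH null cells against wild type. Of 10 tested target genes 4 were higher and 4 lower in VHL/FIH null against wild type, beside 17.8% and 23.6% of all tested genes. The called target genes included Fosl1 (1.13; limma, adjusted p = 1.41e-06) and Ccn4 (-0.87; 1.97e-06).

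Inside the cell, 3 of 25 tested genes of the beta-catenin route were higher and 12 lower in VHL/FIH null against wild type. In VHL null against wild type 3 were higher and 10 lower. Of all tested genes, 17.8% were higher and 23.6% lower in the first comparison, and 15.5% and 28.4% in the second. Dvl2, a Dishevelled protein that relays signals from frizzled receptors, was lower in VHL null (log2 difference -1.05; limma, adjusted p = 6.37e-06) and VHL/FIH null cells (-0.85; 2.13e-05). In planar polarity and other routes apart from beta-catenin, 5 of 27 were higher and 11 lower in VHL null against wild type (18.5% and 40.7%). The shares of all tested genes in that comparison were 15.5% and 28.4%. In VHL/FIH null against wild type 5 of the 27 were higher and 6 lower (18.5% and 22.2%). These were near the shares of all tested genes there (17.8% and 23.6%). Nfatc4 was lower in VHL null (-0.64; limma, adjusted p = 0.000335) and VHL/FIH null cells (-1.06; 6.84e-06), and Scrib was lower in both (-0.41 with 0.000466, and -0.43 with 0.000297).

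Profiles most like those of Ror1, Ror2 and Wnt5a were found by the root mean square difference of log2 signals over the 8 arrays, each gene centred on its own mean, among all tested genes. Nearest to Ror1 were Slc1a6 (0.364), Rspo2 (0.884), Cdh17 (0.894) and Nsg1 (0.905). Slc1a6 and Cdh17 were below the cutoff on all 6 arrays outside VHL/FIH null and, like Ror1, passed the filter through VHL/FIH null cells, so these distances rest in part on signals below it. Slc1a6, a glutamate transporter, gave 41.7 and 27.5 in FIH null, 17.8 and 12.7 in VHL null and 888 and 648 in VHL/FIH null cells, against 255 and 181 in wild type. Nearest to Wnt5a were Il17d (0.163), Adam12 (0.169), F3 (0.18) and Thbs1 (0.187). Thbs1, which encodes the matrix protein thrombospondin, gave 14397 and 14430.3 in FIH null cells, 28713 and 29757 in VHL null cells and 45131 and 40126 in VHL/FIH null cells, against 20669 and 19181 in wild type. Nearest to Ror2 were Glb1 (0.0589), Pctp (0.0603), Zfp637 (0.068) and Wwc2 (0.0683), all with a narrow range. These are descriptions over the same arrays, with no test.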

How the data were processed

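Total RNA of 8 samples was measured on 1-colour arrays, and the intensity values the authors deposited are linear signals. The submitters' processing notes name MAS5, and its version is not given in the sources used here. The table holds 45101 probe sets, 64 of them controls, and array medians ran from 281.5 to 307.1. Values were used as deposited, since every array had the same trimmed mean (2500.01). Depth does not apply to arrays, and the number of arrays limits the precision.

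Symbols came from the platform annotation, updated through Entrez numbers: 34945 probe sets had 1 symbol, 932 several and 9160 none. Signals were log2-transformed after adding 16. Probe sets above the median signal (291.1) on at least 2 arrays were tested, and the tested probe set of highest mean log2 signal stood for a gene, which gave 11564 genes. Limma 3.58.1 in R 4.3.3 fitted 4 group means over all 8 arrays (eBayes with a variance trend, 4 residual and 7.04 prior degrees of freedom), two-sided, with Benjamini-Hochberg adjustment within each comparison. An exact permutation of 2 against 2 arrays cannot go below p = 0.333, so single genes rest on the shared fit. The fit was run on simulated data with known changes. The p-values cover only the spread among these 8 arrays.

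The 10 genes and the Wnt and marker lists were chosen with earlier results of these data known. Named in the text are the 10 genes with all their probe sets, up to 3 called genes per list and comparison with the smallest p, 12 fixed names of the pathway, the genes that check the labels, and the 4 nearest profiles of Ror1, Ror2 and Wnt5a; of those the rule allows, the text gives a part. Where a group was below 291.1 on both arrays, a fold is a bound against that value. Alternatives changed the pseudocount (1 or 64), the filter (none, or the 75th percentile), the normalization (quantile, median centring, or scaling to 18 hybridization control probe sets), the fit (no variance trend, weighted arrays, compared groups alone, a replicate block, 1 array left out) and the reading of a gene (averaged probe sets, or no _s_at and _x_at probe sets). Differences between replicates correlated between groups at 0.0087 to 0.039 over 6 pairs of groups, so the numbers were not taken to pair the samples. Promoters came from RefSeq (GRCm38.p6), and gene symbols from the same annotation.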

Additional observations from a re-analysis of the deposited data

Results flagged for a closer look

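FIH loss gave differences of opposite direction with and without VHL for 6 of the genes, in that every array moved one way where VHL was present and the other way where it was lost. The share of all tested genes with such a reversal was not counted, so the 6 cannot be set against it. The difference on the log2 scale (with VHL lost minus with VHL present) was 6.65 for Ror1, 0.47 for Ror2, 1.09 for Wnt5a, 1.16 for Sfrp1, 0.73 for Dkk3 and -0.55 for Fzd2. These differences were not tested, since the genes were chosen on these arrays. Ror1 was below the cutoff in FIH null and VHL null cells, and Sfrp1 in FIH null cells, so their fitted values are not measured sizes. The Sfrp1 and Fzd2 signs each turn in 1 of the backgrounds with scaling to the hybridization controls. With VHL present the Ror2 difference (-0.07, SE 0.11) was smaller than its SE, as was the Sfrp1 difference with VHL lost (0.12, SE 0.25).

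Among the other Wnt pathway genes the same difference passed the limma interaction test for those named here. Secreted ligands and agonists gave -1.28 for Wnt10a, 1.39 for Wnt4, -0.77 for Wnt10b, 4.21 for Rspo2 and -4.15 for Cthrc1, and the cargo receptor Wls gave 0.65. Receptors gave 0.62 for Fzd7, 0.70 for Fzd5 and 1.41 for Fzd4, and the ligase Rnf43 gave 5.21, with signals below the cutoff in all 3 null groups. Wnt4 was below the cutoff in VHL/FIH null cells and Fzd4 in VHL null cells, so their values are not measured sizes either. Corepressors of the Groucho family gave -1.04 for Tle2, -0.64 for Tle1 and 1.41 for Tle4. Target genes gave 1.95 for Ccn5, 0.59 for Ccnd1 and -0.52 for Ccn4, and genes of routes apart from beta-catenin gave -1.05 for Nfatc1, -0.75 for Nfatc4 and -0.56 for Rock1. Some of these calls were ended by alternatives: Fzd5 by 7 of 19, Wnt10b and Fzd4 by 6 of 19 each, and Tle1 by 1 of 19. None of the alternatives run ended the others named here.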

How the results depend on the processing

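The counts of other Wnt genes called stayed within 1.5 times the reported count in 114 of 125 checks. In FIH null against wild type, 14 became 6 under a filter at the 75th percentile, 38 with scaling to hybridization controls and 8 with no variance trend. In VHL null against wild type, 45 became 72 with scaling to the controls. Under the stricter filter, 53 became 33 in VHL/FIH null against wild type, 49 became 32 against FIH null, and 29 became 18 for the interaction, with fewer genes tested. Leaving out each array gave 5 to 17 in FIH null against wild type (5 without wild type replicate 1, 9 without either FIH null replicate) and 30 to 46 in VHL/FIH null against VHL null (30 without VHL null replicate 1). The cause of these moves was not tested, apart from the filter. With a replicate block the counts were 15, 49, 53, 50, 51 and 32 in the order of the comparisons in the report, and no count moved by over 1.5 times. A fit of the compared groups alone could not be had for the interaction, which needs all 4.

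Among the other named genes 7 differences that were called in the reported fit or under the alternative turned sign, all with scaling to hybridization controls: Ryk to -0.24 in FIH null cells, -0.31 in VHL null cells and -0.25 in VHL/FIH null cells against wild type and to -0.00468 against FIH null, Wnt10a to -0.089 in VHL null, and Fzd7 to -0.31 and Wls to -0.31 in VHL/FIH null against wild type. Turns of differences called in neither fit were not counted. Of 54 differences of the 9 genes, 10 turned sign under some alternative: beside those in the report, Fzd1 to -0.28 in VHL null against wild type, Ror2 to -0.16 and Sfrp2 to -0.14 in VHL/FIH null against FIH null, and the Sfrp2 interaction, which is near 0. Of 1107 member differences under alternatives, 116 moved by more than the spread. With no filter another Ror1 probe set, 1451014_at, was read, and the differences from wild type became -0.10 in FIH null cells, -0.10 in VHL null cells and 0.11 in VHL/FIH null cells. Signals near or below 291.1, those of Ror1, Sfrp1 and Wif1 above all, limit what their values can show.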
